A study of Sus scrofa with 15 samples.

Results

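The NF-κB subunits and the inhibitors that NF-κB induces are described here across 3 NK cell populations of the pig. The 10 genes are *NFKB1*, *NFKB2*, *REL*, *RELA*, *RELB*, *NFKBIA*, *NFKBIE*, *NFKBIZ*, *TNFAIP3* and *BCL3*. They were found by symbol in a count table of 29886 genes, where each had 1 row, and 8 of them were among the 10939 genes that passed a filter on low counts.

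RNA was sequenced from 15 libraries, 1 for each population of each of 5 pigs, all 6 months old and without treatment. The populations were blood cNK cells with much CD8α (CD8α high, labelled Blood NK), liver NK cells with the same gate (labelled Conventional liver NK) and liver NK cells with little of it (CD8α dim, labelled Liver resident NK and called lrNK cells below). All 3 were gated as CD3-negative, CD172a-negative and CD8α-positive and purified by FACS, so the level of CD8α was part of how the cells were chosen. Strain and sex were not given in the sources used here, and the labels name PBMC as the source of all 15 libraries, the liver ones included. Liver cells came from the flush of a liver perfused with cold buffer and were then treated like the blood cells, so the organ and the perfusion cannot be told apart when blood is compared with liver.

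Library totals ran from 2874092 to 3823973 counts in blood (median 3749615), from 2886686 to 5680221 in liver CD8α high NK cells (median 3877028) and from 2003499 to 3776823 in lrNK cells (median 2407859). Levels are given as CPM after TMM scaling, and a count stands for a read near the 3′ end of a transcript. Differences are tested within a gene, and levels of different genes are set side by side only to name the most abundant gene of a list. Differences are log2 fold changes with their standard error (SE), fitted by edgeR to all libraries at once and tested by quasi-likelihood. Intervals come from the fit and cover counting error and the spread among pigs, while floors cover counting error only. A gene was called at a Benjamini-Hochberg adjusted p under 0.05 over all 10939 genes.

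The paper reports the purity of each population after sorting, highest in blood and lowest in lrNK cells, and control stainings of T-bet and Eomes. Here the sorted cells were checked against marker genes. All 16 NK cell markers on the list passed the filter and none was at 0 in any library, with *IL2RB* the most abundant on average in each population. *CD8A* had 229 to 634 CPM in blood, 276 to 596 CPM in liver CD8α high cells and 29.5 to 57.0 CPM in lrNK cells, in the order of the gates. Among NK cell markers 10 were called between lrNK cells and blood, 6 of them higher and 4 of them lower in lrNK cells, and 9 between the liver populations, 5 higher and 4 lower. Of all genes tested 18.2% and 14.6% were called in these comparisons. Between liver CD8α high cells and blood edgeR called 0 of the NK cell and 0 of the T cell markers, with 0 of each at an unadjusted p under 0.05 and 0 by DESeq2. Of 11 T cell markers, *CD4*, *CD5* and *CD28* were at 0 in all libraries and *CD3E* reached 28.0 CPM at most, while *CD3G* reached 1176 CPM in blood. *CD3G* was called lower and *CD247* higher in lrNK cells than in each of the other populations, though with the pig as a block *CD247* was not called between the liver populations (log2 fold change 0.51, SE 0.17, adjusted p = 0.0583) and *CD3E* was called lower in lrNK cells (-2.77, SE 0.89, adjusted p = 0.0418, edgeR, Benjamini-Hochberg). The summed T cell list lay between 639 and 1049 CPM in lrNK cells and between 1074 and 1529 CPM in blood. On average *CD247* was the most abundant of the list in lrNK cells and *CD3G* in blood. The summed macrophage and Kupffer cell list was at most 29.5 CPM, granulocyte markers 0.814, hepatocyte markers 9.74 and endothelial markers 18.5 CPM in any library. No granulocyte or hepatocyte marker passed the filter. *LYZ*, the macrophage marker that did, was called higher in lrNK cells than in liver CD8α high cells, in 4 of 5 pigs, but not with the pig as a block (log2 fold change 4.63, SE 1.55, adjusted p = 0.0512, edgeR, Benjamini-Hochberg). Of 2 endothelial markers tested edgeR called 0, with 0 at an unadjusted p under 0.05 and 0 by DESeq2.

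B cell and plasma cell markers were read in the same way. Their summed level in pigs 1 to 5 was 98.1, 123.6, 210, 141.3 and 69.6 CPM in blood. It was 81.5, 71.2, 44.3, 53.6 and 49.0 CPM in liver CD8α high cells and 594.7, 1194, 658.1, 1133 and 501.7 CPM in lrNK cells. Every lrNK library was thus above every library of the other populations. Of 9 markers 8 were tested, and 7 of these were called higher in lrNK cells than in either other population. Of all genes tested 8.62% were called higher than in blood and 6.96% higher than in liver CD8α high cells. Between liver CD8α high cells and blood edgeR called 0 of them, with 4 at an unadjusted p under 0.05 and 0 by DESeq2. *MS4A1* was on average the most abundant in lrNK cells, with 152 to 475 CPM, while *CD79A* was listed at 0 in all 15 libraries. These values go with every difference of lrNK cells given here, and their part in the result was not tested.

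Libraries that stood apart were also noted. In a principal component analysis of 500 variable genes, the liver CD8α high library of pig 1 scored -8.51 on PC1, nearest to the lrNK libraries, and the other 4 lay between -37.2 and -24.9. The lrNK library of pig 3 scored -35.2 on PC2, and the other 4 of that population lay between 3.16 and 16.0. Where the call of a refitted gene ended without either library, this is stated. Most of the marker genes above were not refitted in this way.

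NF-κB is a family of dimeric transcription factors whose subunits share a Rel homology domain. In resting cells the dimers are held in the cytoplasm by inhibitors of the IκB family, and kinases of the IKK complex mark these inhibitors for degradation. Genes switched on by the dimers include *NFKBIA*, *NFKBIE*, *NFKBIZ* and *TNFAIP3* themselves, which closes a feedback loop. In NK cells the pathway acts downstream of activating receptors and of receptors for interleukins such as IL-18.

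Of the 8 genes tested, 4 were called between lrNK cells and blood cNK cells (edgeR, Benjamini-Hochberg). *RELB*, *NFKBIA* and *NFKBIZ* were higher in lrNK cells and *TNFAIP3* was lower. Of all genes tested 18.2% were called in this comparison, 8.62% higher and 9.6% lower. The median log2 fold change was 0.75 over the 8 genes and 0.0060 over all genes. The first lay between *NFKBIE* and *NFKB2*, neither of which was called. Of the 8 genes 5 were higher in lrNK cells whatever their call, as were 5516 of all 10939. Levels of the 5 lrNK and the 5 blood libraries did not overlap for 3 of the 8, against 13.5% of all genes. Leaving pig 4 out of all populations reduced the called genes from 4 to 2, *NFKBIA* and *NFKBIZ*.

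Between the liver populations 3 of the 8 were called, *NFKBIA* and *NFKBIZ* higher in lrNK cells and *TNFAIP3* lower. Of all genes 14.6% were called, 6.96% higher and 7.68% lower. The median log2 fold change was 0.50 over the 8 genes and 0.016 over all genes. The first again lay between *NFKBIE* and *NFKB2*, neither of which was called. Of the 8 genes 5 were higher in lrNK cells whatever their call, as were 5593 of all 10939. Levels did not overlap for 1 of the 8, *NFKBIZ*, against 11.9% of all genes. Only *NFKBIZ* was called when pig 1, pig 4 or pig 5 was left out, and when the liver CD8α high library of pig 1 alone was left out.

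Between liver CD8α high cells and blood, edgeR called 0 of the 8, and 0.064% of all genes. At an unadjusted p under 0.05 there was 1, *NFKBIA*, and DESeq2 called 0. The median log2 fold change was 0.063 over the 8 genes and -0.024 over all genes. Levels overlapped for all 8, while 2.01% of all genes had no overlap. The comparisons share libraries, the lrNK cells in both comparisons with them and the blood cells in both comparisons with blood, so they are not independent. In bulk RNA, fewer cells that express a gene and less RNA of it per cell cannot be told apart.

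**Figure D1:**
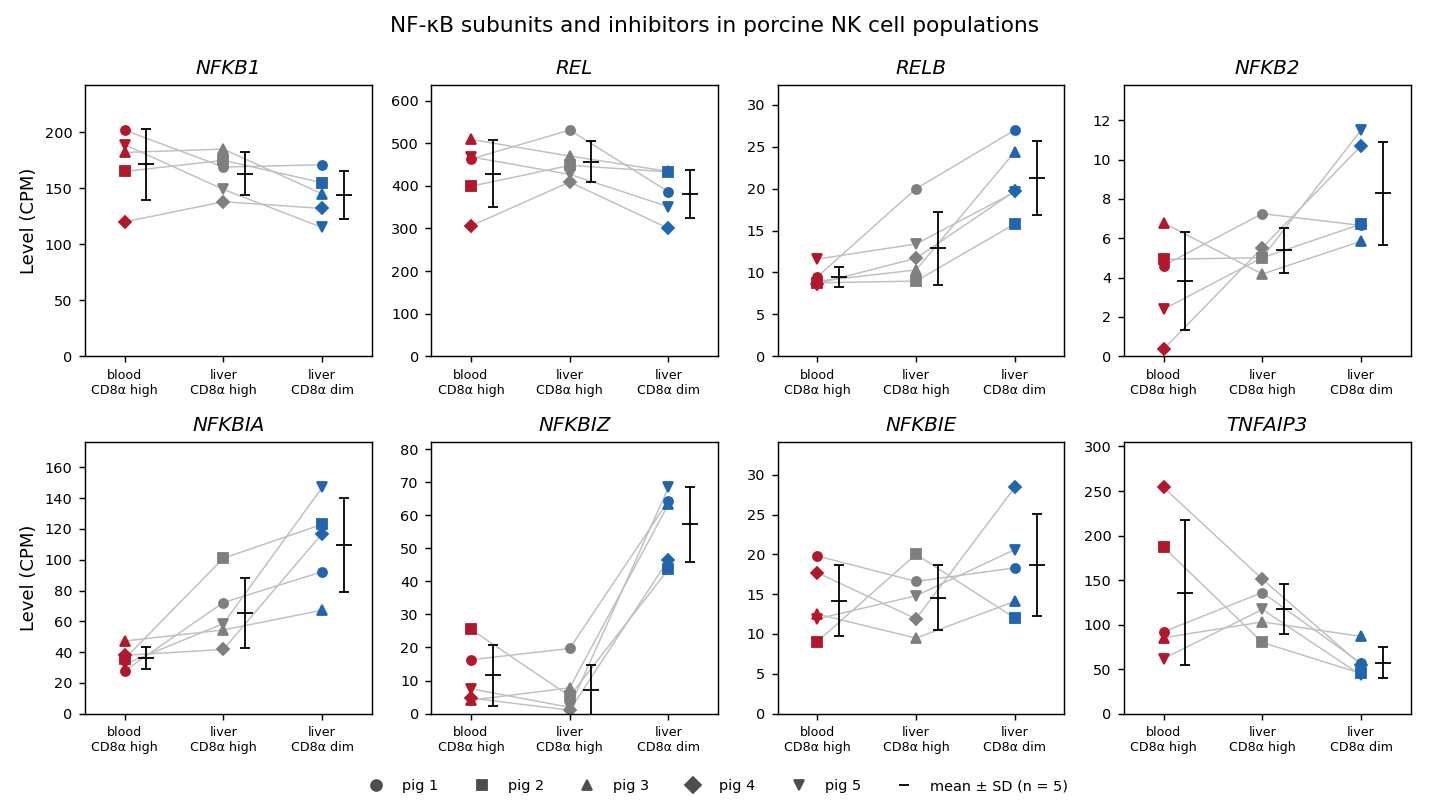
Level in CPM (vertical axis, from 0) of the 8 tested genes in CD8α high cells from blood, CD8α high cells from liver and CD8α dim cells from liver, with a symbol and a grey line per pig and black bars for the mean ± SD (n = 5), drawn down to 0 at most. In *NFKBIZ* the CD8α dim libraries, at 43.7 to 68.4 CPM, lie above all others, and in *NFKBIA* and *RELB* every line rises from left to right.

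Among the subunits, *RELB* encodes the partner of the *NFKB2* product in the non-canonical branch of the pathway. Its level in pigs 1 to 5 was 9.48, 8.77, 8.96, 8.67 and 11.6 CPM in blood, from 24 to 35 counts per library. It was 20.03, 8.97, 10.3, 11.7 and 13.4 CPM in liver CD8α high cells and 27.0, 15.8, 24.4, 19.7 and 19.6 CPM in lrNK cells. All lrNK libraries were above all blood libraries. The liver CD8α high library of pig 1 lay within the lrNK range and the other 4 lay below it. *RELB* was 2.24-fold higher in lrNK cells than in blood, a log2 fold change of 1.16 (SE 0.32, adjusted p = 0.0139, edgeR, Benjamini-Hochberg), in 5 of 5 pigs. Without pig 1 and without pig 4 the adjusted p was 0.0585 and 0.0501, and with all genes of at least 1 count tested it was 0.0611, in a range of 0.00274 to 0.0611 over all settings (edgeR, Benjamini-Hochberg). Over all settings tried the log2 fold change ran from 1.07 to 1.28. Against liver CD8α high cells, the log2 fold change of 0.73 missed the threshold (SE 0.32, adjusted p = 0.149, edgeR, Benjamini-Hochberg), though 5 of 5 pigs had more in lrNK cells. Without the liver CD8α high library of pig 1 it was 0.93 (adjusted p = 0.0725, from 0.0725 to 0.336 over all settings, edgeR, Benjamini-Hochberg).

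*NFKB2*, whose precursor protein is processed to a subunit that pairs with *RELB*, was counted only 1 to 44 times per library. Pigs 1 to 5 had 4.61, 4.93, 6.78, 0.361 and 2.39 CPM in blood and 7.25, 5.01, 4.18, 5.52 and 5.02 CPM in liver CD8α high cells. In lrNK cells they had 6.65, 6.72, 5.85, 10.7 and 11.5 CPM. The lowest blood values were those of pigs 4 and 5, the same pigs that had the highest lrNK values, and the groups overlapped. The log2 fold change of lrNK cells against blood was 1.10 with a SE of 0.60 (adjusted p = 0.233, edgeR, Benjamini-Hochberg), higher in 4 of 5 pigs. The 95% interval ran from -0.14 to 2.35, and the log2 differences of single pigs ran from -0.20 in pig 3 to 3.57 in pig 4.

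The products of *NFKB1* and *REL* serve in the canonical branch, and the lowest counts per library were 298 and 846. *NFKB1* had 172 ± 31.9 CPM (SD, n = 5) in blood, 163 ± 19.2 CPM in liver CD8α high cells and 144 ± 21.4 CPM in lrNK cells. *REL* had 429 ± 79.4, 457 ± 47.1 and 381 ± 57.3 CPM in the same order. The ranges of the 3 populations overlapped in both genes. *NFKB1* differed between lrNK cells and blood by a log2 fold change of -0.26 (95% interval -0.60 to 0.087, adjusted p = 0.33) and *REL* by -0.17 (-0.50 to 0.15, adjusted p = 0.511, edgeR, Benjamini-Hochberg). Among pigs, the blood library of pig 4 was the lowest blood library of both, with 120 CPM of *NFKB1* and 306 CPM of *REL*. *REL* was lower in lrNK cells than in liver CD8α high cells in 5 of 5 pigs, by a log2 fold change of -0.26 that missed the threshold (SE 0.16, adjusted p = 0.314, edgeR, Benjamini-Hochberg).

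*RELA*, the main activating subunit of the canonical dimer, was listed at 0 in 13 of the 15 libraries. The exceptions were 3 and 4 counts in the liver CD8α high libraries of pigs 4 and 5. A count of 0 allows up to 3 counts, or between 0.784 and 1.46 CPM in these 13 libraries. How transcript ends were assigned to genes is not given in the sources used here, so a 0 in the table limits the counts and not the expression of the gene. *RELA* did not pass the filter and was not tested.

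*NFKBIA* encodes IκBα, the inhibitor that NF-κB induces quickly and that returns dimers to the cytoplasm. Across pigs 1 to 5 the level was 27.9, 35.6, 47.2, 37.9 and 32.1 CPM in blood and 72.2, 101, 54.4, 41.7 and 58.5 CPM in liver CD8α high cells. In lrNK cells it was 92.2, 123, 67.2, 117 and 147 CPM. No lrNK library overlapped the blood libraries, and the lowest lrNK value, in pig 3, came from the pig with the highest blood value. The level was 3.03-fold higher in lrNK cells than in blood, a log2 fold change of 1.60 (SE 0.25, adjusted p = 8.9e-05, edgeR, Benjamini-Hochberg), in 5 of 5 pigs. The call was kept in all 15 other settings, with log2 fold changes from 1.44 to 1.84.

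Between the liver populations, *NFKBIA* was 1.67-fold higher in lrNK cells, or 0.74 as log2 fold change (SE 0.24, adjusted p = 0.0451, edgeR, Benjamini-Hochberg), again in 5 of 5 pigs but with overlapping ranges. The pairwise log2 difference was 1.47 in pig 4 and 1.32 in pig 5, and 0.28 to 0.35 in the others. Without pig 4 and without pig 5 the adjusted p was 0.206 and 0.267, without pig 1 it was 0.0656, and without the liver CD8α high library of pig 1 it was 0.0601 (edgeR, Benjamini-Hochberg). A fit of the 2 liver populations alone gave 0.0768, and all settings together 0.00996 to 0.267. Against blood, the liver CD8α high level was higher in 5 of 5 pigs, by a log2 fold change of 0.86 that missed the threshold (SE 0.25, 95% interval 0.34 to 1.37, adjusted p = 0.544, edgeR, Benjamini-Hochberg). In pigs 3 and 4 that log2 difference was 0.20 and 0.13, and in pigs 1 and 2 it was 1.35 and 1.49.

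*NFKBIE* encodes IκBε, a related cytoplasmic inhibitor. It had 14.2 ± 4.42 CPM (SD, n = 5) in blood, 14.6 ± 4.10 CPM in liver CD8α high cells and 18.7 ± 6.39 CPM in lrNK cells, from 25 to 101 counts per library. The ranges of all populations overlapped, and the highest value was 28.4 CPM in the lrNK library of pig 4. The log2 fold change of lrNK cells against blood was 0.40 (SE 0.34, adjusted p = 0.48, edgeR, Benjamini-Hochberg), in 4 of 5 pigs.

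*NFKBIZ* encodes IκBζ, an IκB protein of the nucleus that modulates transcription of a subset of target genes. For pigs 1 to 5 it had 16.3, 25.5, 4.07, 4.70 and 7.51 CPM in blood and 19.7, 5.27, 7.81, 1.03 and 1.91 CPM in liver CD8α high cells. In lrNK cells it was 64.4, 43.7, 63.3, 46.6 and 68.4 CPM. Every lrNK library was above every library of the other populations. Within blood the pigs spread 6.26-fold and within liver CD8α high cells 19.0-fold, but within lrNK cells only 1.57-fold. The wider spreads rest in part on single libraries. In liver CD8α high cells pig 1 had 19.7 CPM and the others 1.03 to 7.81, where the lowest value, in pig 4, came from 6 counts. In blood pig 2 had 25.5 CPM and the others 4.07 to 16.3.

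*NFKBIZ* was 4.89-fold higher in lrNK cells than in blood, a log2 fold change of 2.29 (SE 0.58, adjusted p = 0.00716), and 8.30-fold higher than in liver CD8α high cells, a log2 fold change of 3.05 (SE 0.60, adjusted p = 0.00105, edgeR, Benjamini-Hochberg). Both differences held in 5 of 5 pigs and were called in all 15 other settings, where the log2 fold changes ran from 2.03 to 2.88 and from 2.72 to 3.87. The highest liver CD8α high value was that of pig 1. Liver CD8α high cells and blood differed by -0.76 (SE 0.59, adjusted p = 1, edgeR, Benjamini-Hochberg), lower in 3 of 5 pigs. Over all settings that log2 fold change ran from -1.58 to -0.16.

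*BCL3*, another nuclear IκB protein that binds homodimers of the *NFKB1* and *NFKB2* products, was listed at 0 in all 15 libraries and was not tested. Here, too, the 0 limits the counts and not the expression. Some other immune genes on the lists, *MYD88* among them, were also listed at 0 in all libraries.

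*TNFAIP3* encodes an enzyme that edits ubiquitin chains on signalling proteins upstream of IKK and so dampens the pathway. From pig 1 to pig 5 its levels were 91.9, 187, 85.2, 254 and 61.8 CPM in blood and 136, 79.9, 103, 151 and 117 CPM in liver CD8α high cells. In lrNK cells it was 56.5, 45.1, 86.7, 54.5 and 43.1 CPM. Blood values spread 4.11-fold and were highest in pigs 2 and 4. In pig 3 the lrNK level was slightly above the blood level, and the groups overlapped.

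*TNFAIP3* was 2.38-fold lower in lrNK cells than in blood, a log2 fold change of -1.25 (SE 0.32, adjusted p = 0.00774, edgeR, Benjamini-Hochberg), in 4 of 5 pigs. Without pig 2 the log2 fold change was -1.04 (adjusted p = 0.0644) and without pig 4 it was -0.89 (adjusted p = 0.0738), in a range of 0.000349 to 0.0738 over all settings (edgeR, Benjamini-Hochberg). Compared with liver CD8α high cells the log2 fold change was -1.04 (SE 0.32, adjusted p = 0.0294, edgeR, Benjamini-Hochberg), lower in 5 of 5 pigs with overlapping ranges. That call was lost without pig 1, 2, 4 or 5, with adjusted p-values of 0.0964, 0.0634, 0.0751 and 0.0865, and without the liver CD8α high library of pig 1, with 0.0563, in a range of 0.00358 to 0.0964 (edgeR, Benjamini-Hochberg). Liver CD8α high cells and blood differed by -0.21 (SE 0.31, adjusted p = 1, edgeR, Benjamini-Hochberg). The direction of this last value turned without pig 2 (0.045) and without pig 4 (0.033).

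**Figure D2:**
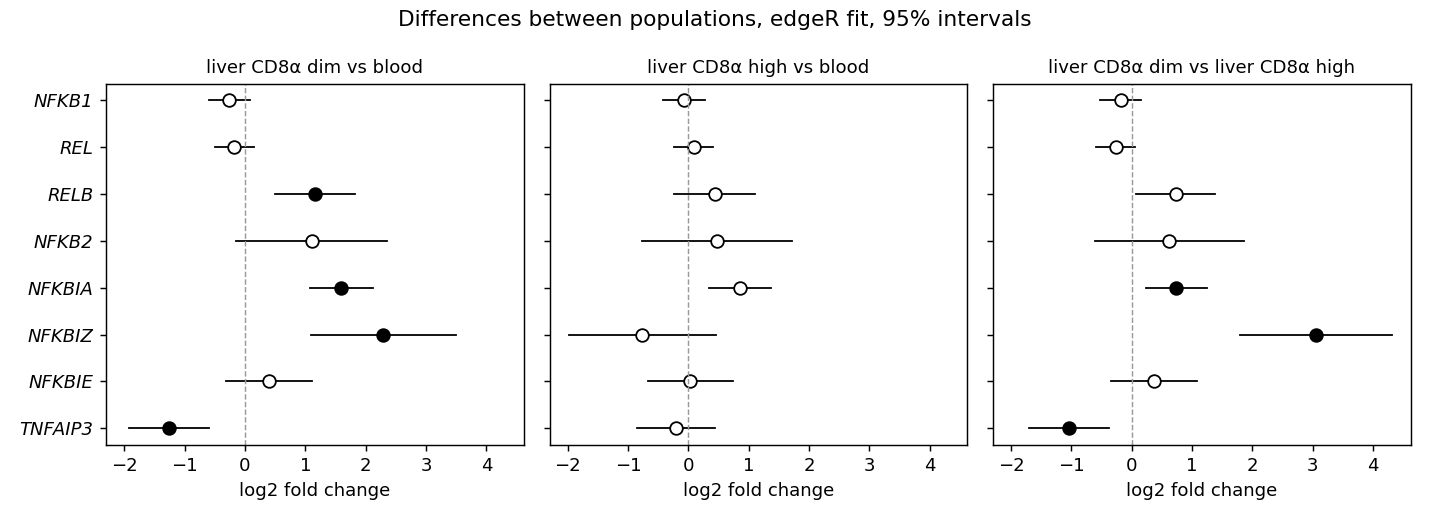
Log2 fold change (horizontal axis) of the 8 tested genes in each of the 3 comparisons, with 95% intervals from the edgeR fit of all 15 libraries. Filled circles have an adjusted p under 0.05: 4 genes for CD8α dim liver cells against blood, 0 for CD8α high liver cells against blood and 3 between the liver populations.

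The order of the levels was read within each pig, a pattern chosen after the values were seen. *NFKBIA* and *RELB* were lowest in blood, higher in liver CD8α high cells and highest in lrNK cells in 5 of 5 pigs, and 0.64% of all genes, 70 of 10939, did so. The order held in all 5 pigs with DESeq2's size factors and with upper quartile scaling, alternatives added after the data were seen. For *RELB* neither step was called, and for *NFKBIA* only the step between the liver populations was. *NFKB2* had that order in 3 pigs, *NFKBIZ* in 2, *NFKBIE* in 1, and *NFKB1*, *REL* and *TNFAIP3* in 0.

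Genes that handling of cells can induce were read beside these values. In pigs 1 to 5 the summed level of 18 immediate early and heat shock genes was 1780, 2190, 1918, 2026 and 2072 CPM in blood. It was 2690, 5503, 3712, 2904 and 2940 CPM in liver CD8α high cells and 2719, 3515, 3462, 3347 and 2939 CPM in lrNK cells. Each liver library was above each blood library in this sum, of which *HSPA8* alone had 1045 to 2222 CPM in liver libraries. *FOS* and *NR4A1* of the list were at 0 in all blood and lrNK libraries, which limits their counts and not their expression. For *NFKBIA*, all liver libraries but the CD8α high library of pig 4 were above each blood library. Of 15 such genes tested, *HSPA8*, *IER5* and *EGR1* were called higher and *JUNB* lower in lrNK cells than in blood. Of all genes tested 18.2% were called in that comparison and 14.6% between the liver populations. Between the liver populations *IER5* was called higher (log2 fold change 0.70) and *JUNB* and *IER2* lower (-0.84 and -0.74) in lrNK cells, each in 5 of 5 pigs. There *IER5* lost its call without pig 2 (adjusted p = 0.0926, from 0.00231 over all settings), *JUNB* without pig 3 or 5 (0.0551 and 0.0699, from 0.0033) and *IER2* without pig 4 or 5 (0.0768 and 0.0699, from 0.00695, edgeR, Benjamini-Hochberg). *HSPA8*, a chaperone and the most abundant of the list in all liver libraries, was the only gene of the list that edgeR called between liver CD8α high cells and blood (log2 fold change 1.15, SE 0.19, adjusted p = 0.0103, edgeR, Benjamini-Hochberg), in 5 of 5 pigs. There 6 genes of the list were at an unadjusted p under 0.05, and DESeq2 called 3. The *HSPA8* log2 fold change ran from 0.99 to 1.24 over all settings. Its call was lost when any pig was left out, with adjusted p-values from 0.0644 without pig 1 to 0.105 without pig 3, and 0.0682, 0.0733 and 0.0717 without pigs 2, 4 and 5, and from 7.08e-06 to 0.105 over all settings (edgeR, Benjamini-Hochberg). For these genes, too, their part in the result was not tested. The median log2 fold change of this list was 0.48 between lrNK cells and blood, 0.74 between liver CD8α high cells and blood and -0.27 between the liver populations.

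Other genes of the pathway were read from 5 lists, with 79 genes tested. Of these, 18 were called between lrNK cells and blood and 12 between the liver populations, beside 18.2% and 14.6% of all genes. DESeq2 called 23 and 18 of them, beside 2322 and 1853 of all 10939 genes. Between liver CD8α high cells and blood edgeR called 0 of the 79, with 6 at an unadjusted p under 0.05. There DESeq2 called 1, *CCL4*, whose levels are given with the targets, beside 25 of all 10939 genes. For counts at an unadjusted p, the share of all genes is not given here.

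Of 18 receptors that signal to NF-κB 10 passed the filter, which keeps genes that are high in a single population. Their median log2 fold change was 2.28 between lrNK cells and blood. In edgeR *IL18R1*, *IL18RAP*, *IL1RL1* and *TLR1* were called higher in lrNK cells and 0 were called lower, with 8 of the 10 at an unadjusted p under 0.05 and 6 called by DESeq2. Those 6 also held *CD40*, chosen after its values were seen, with 14.3 ± 12.4 CPM (SD, n = 5) in lrNK cells and 2.01 ± 2.20 CPM in blood (edgeR log2 fold change 2.78, SE 1.14, adjusted p = 0.101, Benjamini-Hochberg, higher in 5 of 5 pigs). *TNFRSF1B*, a TNF receptor, was the other gene that DESeq2 added, and in edgeR its log2 fold change of -0.59 missed the threshold (SE 0.21, adjusted p = 0.0564, lower in 4 of 5 pigs), with -0.65 and an adjusted p of 0.0169 when blocked by pig (edgeR, Benjamini-Hochberg). *IL18R1* and *IL18RAP* encode the chains of the IL-18 receptor. In pigs 1 to 5 *IL18R1* had 52.3, 24.4, 14.9, 28.5 and 28.7 CPM in blood, 141, 24.0, 33.7, 10.2 and 9.31 CPM in liver CD8α high cells and 475, 159, 326, 235 and 335 CPM in lrNK cells. The lrNK libraries were above all others, and the liver CD8α high library of pig 1 was nearest to them. The log2 fold change against blood was 3.36 (SE 0.58, adjusted p = 0.000228), and for *IL18RAP* it was 3.24 (SE 0.68, adjusted p = 0.00154, edgeR, Benjamini-Hochberg), both in 5 of 5 pigs. *IL1RL1*, the receptor of IL-33, had 0 to 8 counts in blood libraries, against 26 to 170 in those of lrNK cells (log2 fold change 5.37, SE 0.81, adjusted p = 5.41e-05, edgeR, Benjamini-Hochberg). *TLR1*, which senses bacterial lipopeptides together with another Toll-like receptor, had 2.47 to 8.13 CPM in blood and 14.95 to 55.68 CPM in lrNK cells, the highest in pig 2. The same 4 receptors were called higher in lrNK cells than in liver CD8α high cells, with log2 fold changes from 2.64 for *TLR1* to 3.87 for *IL1RL1*. Over all settings *IL18R1*, at 2.84, ran from 2.53 to 4.00 and *IL18RAP* from 2.21 to 3.33. *IL1RL1* ran from 3.42 to 4.56 and *TLR1* from 2.19 to 2.98. There *TNFRSF1B* was called lower (log2 fold change -0.66, SE 0.21, adjusted p = 0.0385), a call lost without pig 1, 2, 4 or 5 and with the liver populations fitted alone (adjusted p = 0.115, 0.179, 0.104, 0.1 and 0.0898, from 0.00133 over all settings, edgeR, Benjamini-Hochberg).

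The IKK complex and the kinases that activate it had 13 genes, all tested, with a median log2 fold change of -0.14 between lrNK cells and blood. *MAP3K14* and *MAP3K8* were called lower in lrNK cells. *MAP3K14* encodes NIK, the kinase that starts the processing of the *NFKB2* precursor. Levels in pigs 1 to 5 were 35.8, 25.2, 35.0, 28.5 and 25.6 CPM in blood, 13.5, 23.5, 37.4, 19.0 and 19.3 CPM in liver CD8α high cells and 16.6, 15.8, 13.2, 4.77 and 12.5 CPM in lrNK cells. The lrNK and blood libraries did not overlap, while *RELB* was higher in the same lrNK libraries. The log2 fold change was -1.27 (SE 0.34, adjusted p = 0.0113, edgeR, Benjamini-Hochberg), in 5 of 5 pigs. For *MAP3K8* it was -0.91 in 4 of 5 pigs (SE 0.25, adjusted p = 0.012), and this call was lost without pig 2, 3 or 4 (adjusted p = 0.0629, 0.0631 and 0.0605, from 0.00449 over all settings, edgeR, Benjamini-Hochberg). With the pig as a block, 4 kinase genes were called in place of 2.

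Of the IKK subunits themselves, none was called without the block. *IKBKG*, the regulatory subunit, had 68.3, 50.7, 62.4, 65.0 and 43.3 CPM in blood and 62.3, 37.9, 30.7, 28.9 and 30.8 CPM in lrNK cells. The lrNK library of pig 1 was far above the other 4. The log2 fold change was -0.61 (SE 0.24, adjusted p = 0.086), with an adjusted p of 0.0365 when blocked by pig and 0.0295 without pig 1, in a range of 0.0295 to 0.299 over all settings (edgeR, Benjamini-Hochberg). The catalytic subunits *IKBKB* and *CHUK* differed by 0.47 (SE 0.36, adjusted p = 0.427) and 0.21 (SE 0.54, adjusted p = 0.848, edgeR, Benjamini-Hochberg), and the second turned to -0.0048 without pig 5. *CHUK* rests on 7 to 52 counts per library in these 2 populations.

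Of 17 other inhibitors and negative regulators 16 were tested, with a median log2 fold change of -0.11 between lrNK cells and blood. *TNIP1* was called higher and *N4BP1*, *IRAK3* and *ITCH* lower in lrNK cells, each in 5 of 5 pigs. *N4BP1*, an inhibitor of NF-κB signalling downstream of Toll-like receptors, had 443, 389, 426, 543 and 480 CPM in blood and 165, 172, 252, 146 and 222 CPM in lrNK cells. Its groups did not overlap, and the log2 fold change was -1.25 (SE 0.17, adjusted p = 1.4e-05, edgeR, Benjamini-Hochberg), in 5 of 5 pigs. *TNIP1* encodes a partner of the *TNFAIP3* protein, and had 40.1, 43.0, 46.9, 34.3 and 33.8 CPM in blood and 88.5, 46.1, 184, 44.1 and 56.4 CPM in lrNK cells. Most of the rise came from the lrNK libraries of pigs 3 and 1. Its log2 fold change was 1.07 (SE 0.32, adjusted p = 0.022), and 0.58 without the lrNK library of pig 3 (adjusted p = 0.0848, edgeR, Benjamini-Hochberg). Without pig 1, 3 or 5 the adjusted p was 0.0758, 0.107 and 0.0514, in a range of 0.00777 to 0.107 over all settings (edgeR, Benjamini-Hochberg). The calls of *IRAK3* and *ITCH* (log2 fold changes -2.38 and -0.57) were also lost when a pig was left out, with adjusted p-values of 0.0982 and 0.0692 for *IRAK3* without pigs 2 and 5 (from 0.00193 over all settings) and of 0.168, 0.0752, 0.0641 and 0.0569 for *ITCH* without pigs 1, 2, 4 and 5 (from 0.0118, edgeR, Benjamini-Hochberg). Both were also lost with these 2 populations fitted alone, at 0.0557 and 0.0712.

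Against liver CD8α high cells, *TNIP1* was called higher (log2 fold change 1.32) and *N4BP1* and *IRAK3* lower (-1.30 and -2.18) in lrNK cells, each in 5 of 5 pigs. The *N4BP1* value had an SE of 0.17 (adjusted p = 1.13e-05, edgeR, Benjamini-Hochberg). *TNIP1* lost the call without pig 3 (adjusted p = 0.0548, from 0.000807 over all settings), and *IRAK3* without pig 2, 3 or 5 and with the liver populations fitted alone (adjusted p = 0.157, 0.0567, 0.129 and 0.0732, from 0.00623, edgeR, Benjamini-Hochberg). Other direct partners were not called between lrNK cells and blood. The log2 fold changes were 0.34 for *NFKBIB*, -0.30 for *CYLD* and -1.21 for *NFKBID*, a nuclear IκB protein (SE 0.53, adjusted p = 0.13, edgeR, Benjamini-Hochberg). *NFKBID* had 4 to 25 counts in lrNK libraries and 18 to 32 in blood libraries. Against liver CD8α high cells its levels did not overlap, at 1.12 to 6.53 CPM in lrNK cells and 7.81 to 16.6 CPM in liver CD8α high cells, lower in 5 of 5 pigs. DESeq2 called this difference and edgeR did not (log2 fold change -1.51, SE 0.53, adjusted p = 0.0645, Benjamini-Hochberg). *TRAF3*, which holds NIK at low levels, had a log2 fold change of -0.082 that turned to 0.075 without pig 3 and 0.11 without the lrNK library of pig 3 alone.

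Adaptors and ubiquitin ligases had 18 tested genes, with a median log2 fold change of 0.13 between lrNK cells and blood. *BIRC3* was called higher and *TIRAP* and *IRAK2* lower (-0.93 and -0.66 as log2 fold changes, in 5 and 4 of 5 pigs). *BIRC3* encodes a ubiquitin ligase that acts in TNF receptor signalling and keeps NIK low, and is itself a reported target of NF-κB. The 5 pigs had 106, 132, 147, 80.2 and 101 CPM in blood, 143, 162, 146, 101 and 133 CPM in liver CD8α high cells and 222, 313, 213, 243 and 243 CPM in lrNK cells. The lrNK libraries were above all others. The log2 fold change was 1.12 against blood (SE 0.18, adjusted p = 0.000129) and 0.85 against liver CD8α high cells (SE 0.18, adjusted p = 0.00213, edgeR, Benjamini-Hochberg), both in 5 of 5 pigs. *TIRAP* was at the edge of the threshold against blood (adjusted p = 0.0486) and lost the call in 11 of 15 settings, with 0.196 without pig 1, 0.111 without pig 2, 0.121 without pig 4, 0.0827 without pig 5, 0.051 without the lrNK library of pig 3 and 0.0517 without the liver CD8α high library of pig 1, in a range of 0.0343 to 0.196 (edgeR, Benjamini-Hochberg). *IRAK2* lost it without pig 1, 2, 4 or 5 and with these 2 populations fitted alone (adjusted p = 0.105, 0.0922, 0.118, 0.155 and 0.0684, from 0.000487 over all settings, edgeR, Benjamini-Hochberg). Between the liver populations *BIRC3* and *RBCK1* were called higher and *IRAK2* lower in lrNK cells (0.96 for *RBCK1* and -1.04 for *IRAK2*, each in 5 of 5 pigs), *RBCK1* not without pig 2, 3 or 5 (adjusted p = 0.0745, 0.111 and 0.063, from 0.00486 over all settings, edgeR, Benjamini-Hochberg). With the pig as a block, 5 genes of this list were called between lrNK cells and blood.

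Reported targets of NF-κB were called in both directions, and a common direction was not tested. Of 38 such genes 24 were tested, with a median log2 fold change of 0.24 between lrNK cells and blood, also with *VCAM1* set to its bound. *BIRC3*, *CCL4* and *VCAM1* were called higher and *IER3*, *TNFAIP2* and *KLF6* lower in lrNK cells. At an unadjusted p under 0.05 there were 10, and those of them not called all had higher means in lrNK cells. DESeq2 called 7. *KLF6*, a zinc finger transcription factor, had 145 to 240 CPM in blood and 56.9 to 118 CPM in lrNK cells (log2 fold change -1.17, SE 0.21, adjusted p = 0.000293, edgeR, Benjamini-Hochberg), lower in 5 of 5 pigs. *VCAM1*, an adhesion molecule, was listed at 0 in all blood libraries and counted 249, 139, 0, 93 and 48 times in the lrNK libraries of pigs 1 to 5. Its mean lrNK level was at least 45.8-fold higher than the mean level of 3 counts per blood library, and at least 28.9-fold higher without the lrNK library of pig 1. With robust dispersion its adjusted p was 0.0512, the highest of the 13 other settings in which it had a value (edgeR, Benjamini-Hochberg). The chemokine gene *CCL4* had 1.82 ± 1.71 CPM (SD, n = 5) in blood, 19.7 ± 10.8 CPM in liver CD8α high cells and 13.7 ± 12.2 CPM in lrNK cells. Liver CD8α high cells were above blood in 5 of 5 pigs, which missed the threshold in edgeR (log2 fold change 3.40, SE 0.76, adjusted p = 0.196, Benjamini-Hochberg). Cells of the lrNK population were above blood in 4 of 5 pigs (log2 fold change 2.90, from 2.22 without pig 5 to 3.61 over all settings). This call was lost without pig 5 (adjusted p = 0.111, from 0.00049 over all settings, edgeR, Benjamini-Hochberg). *IER3* reached 40 counts in blood and 7 in lrNK cells, and *TNFAIP2* 47 and 13, with log2 fold changes of -3.05 and -2.79 and lower levels in 5 of 5 pigs. Over all settings these values ran from -3.99 to -2.45 and from -3.39 to -2.56. *IER3* lost the call without pig 4 or 5 (adjusted p = 0.0786 and 0.081, from 0.00045 over all settings) and *TNFAIP2* without pig 2, 3 or 4 (adjusted p = 0.109, 0.0526 and 0.0605, from 0.00357, edgeR, Benjamini-Hochberg). Between the liver populations *BIRC3* was called higher and *KLF6* lower in lrNK cells (-0.67 for *KLF6*, in 5 of 5 pigs), *KLF6* not without pig 2, 4 or 5 or with these populations fitted alone (adjusted p = 0.124, 0.112, 0.12 and 0.052, from 0.00205 over all settings, edgeR, Benjamini-Hochberg). With the pig as a block 5 targets were called there, and by DESeq2 also 5.

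**Figure D3:**
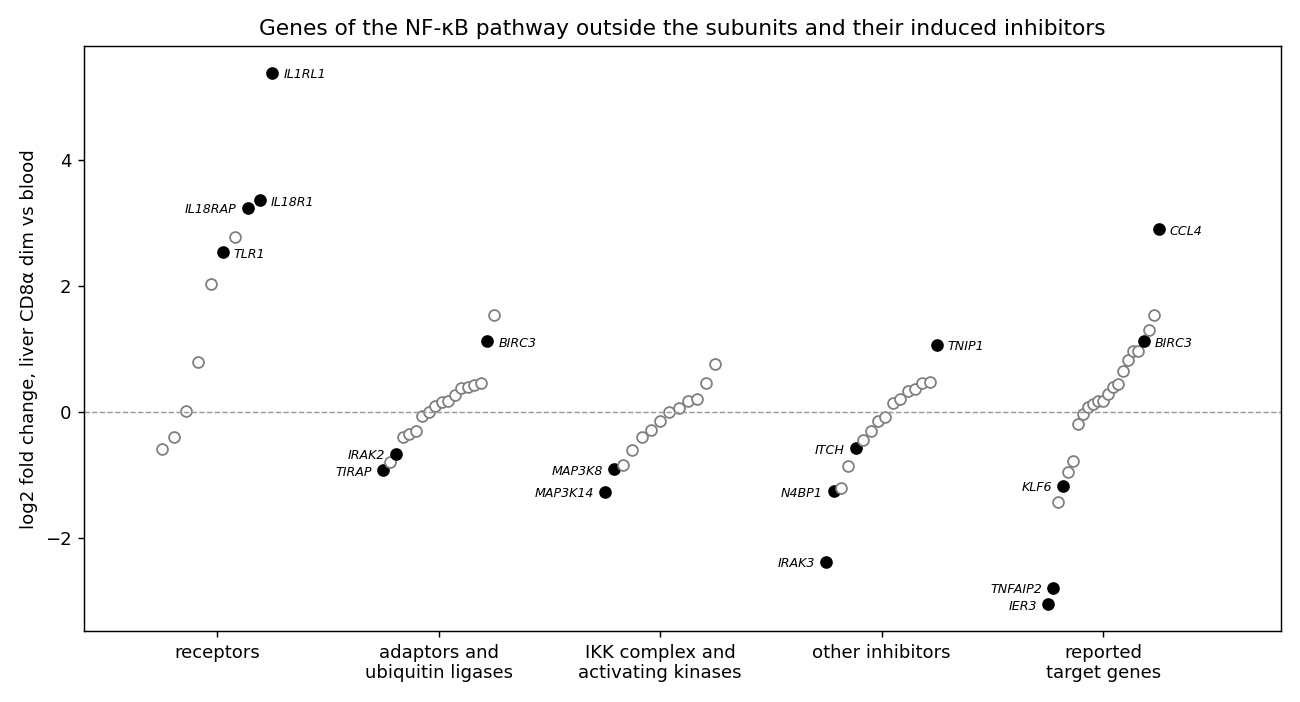
Log2 fold change of CD8α dim liver cells against blood (vertical axis) for tested genes of 5 pathway lists, sorted within each list along the horizontal axis, with those at an adjusted p under 0.05 in edgeR filled and named. *VCAM1*, at 0 in all blood libraries, is not drawn, *BIRC3* is on 2 lists, and the 4 named receptors lie between 2.53 and 5.37.

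For each of the 4 genes called in any comparison, the 3 genes with the most similar pattern were found by the root mean square difference of centred log2 CPM over 15 libraries, among 10931 genes. Nearest to *RELB* were *LRCH1* (0.26), *PTPN6* (0.27) and *SATB1* (0.27), where *RELB* itself had an SD of 0.55 over the libraries. For *NFKBIA* they were *MTHFD2* (0.33), *BIRC3* (0.37) and *ZNFX1* (0.38), with an SD of 0.76 for *NFKBIA*. For *NFKBIZ* they were *NCR1* (0.62), *PLEKHF1* (0.67) and *IL18R1* (0.68), with an SD of 1.79 for *NFKBIZ*. For *TNFAIP3* they were *LOC100516295* (0.42), *ITGB2* (0.44) and *ITGAM* (0.45), with an SD of 0.75 for *TNFAIP3*.

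In Sscrofa11.1, *RELB* spans 51444670 to 51480350 on chromosome 6 and *BCL3* spans 51256033 to 51264923 on the same chromosome. *NFKBIA* lies on chromosome 7 from 64508119 to 64510754 and *NFKBIE* on the same chromosome from 39255078 to 39266085. *NFKBIZ* lies on chromosome 13 from 157261419 to 157273119, *TNFAIP3* on chromosome 1 from 26474158 to 26489771 and *RELA* on chromosome 2 from 6594869 to 6602684. *NFKB1* lies on chromosome 8 from 118391010 to 118478927, *NFKB2* on chromosome 14 from 113406412 to 113414177 and *REL* on chromosome 3 from 80861862 to 80912233. The annotation places other genes over part of 5 of them. *RELB* shares 1228 bases with *LOC110261003*, *NFKBIA* 795 with *LOC110261573*, *NFKB2* 1020 with *LOC106506113*, *REL* 1912 with *PUS10* and *NFKBIE* 579 with *TMEM151B*. The strand setting of the counting is not given in the sources used here, so reads in shared bases cannot be assigned with certainty. *NFKBIZ* and *TNFAIP3* overlap no annotated gene.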

How the data were processed

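Polyadenylated RNA of 15 libraries from 3 sorted NK cell populations of 5 pigs was sequenced from the 3′ end. The authors trimmed reads with QuasR, aligned them to Sscrofa11.1 (HISAT2 in the submitters' notes, version not given in the sources used here) and deposited raw counts per gene. How reads were counted (the tool, strand, and reads aligned to several places) is not given in the sources used here. Totals ran from 2003499 to 5680221 counts per library, so genes with few counts are imprecise. Of the columns 0 matched no sample. Within populations, 30 library pairs differed by 9.41 to 46.7 chi-square per degree of freedom, so none was a duplicate.

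R 4.3.3 and edgeR 4.0.16 were used for all tests (TMM, default filter by population, quasi-likelihood test, Benjamini-Hochberg over 10939 genes, 15 libraries in 1 fit). CPM are relative to the TMM-scaled library total, log2 CPM had a prior count of 2, and the standard error is the log2 fold change over the square root of F. The scripts were tested on simulated data. Libraries were paired by pig through the labels and the paper. Deviations from population means correlated by 0.107 on average within pigs (lowest -0.019) and by -0.0265 between pigs. The tests as given have no block. Alternatives were the block, DESeq2 1.42.0, 2 other scalings, 2 other filters, robust dispersion, 2 populations alone, an adjusted p under 0.01, each pig left out, and 2 single libraries left out (lrNK of pig 3, liver CD8α high of pig 1). Other scalings for the order of populations were added after the data were seen.

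Members and lists (receptors, kinases, adaptors, other inhibitors, reported targets, handling-sensitive genes and markers of NK, T, B, macrophage, granulocyte, hepatocyte and endothelial cells) were chosen with earlier results of these data known. Named are the 10 members, their direct partners, list genes called in a comparison, the nearest genes in pattern and markers in the check of the sort. *MYD88* and *CD40* were chosen after their values were seen. The list of reported targets comes from general knowledge of the pathway. Coordinates come from RefSeq's gene table of Sscrofa11.1, which matched 29862 of 29886 symbols. Sequences were not used here. Plots come from Python 3.11.15 with matplotlib 3.10.9.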

Additional observations from a re-analysis of the deposited data

Results flagged for a closer look

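In each population of 5 libraries, a library was noted where its gap to the nearest of the others took up most of the range (Dixon's ratio). Of 186 groups of values examined 16 were noted, and chance gives about 1 in 20 groups. Causes were not tested.

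The liver CD8α high library of pig 1 accounted for 7 of them. It was far above its group in *IL18R1* (140.9 CPM, the others 9.315 to 33.74), *NCR1* (167.1, the others 11.23 to 40.61), *PLEKHF1* (44.55, the others 5.343 to 11.99), *LRCH1* (156.1, the others 97.56 to 100.9), *NFKBID* (16.58, the others 7.807 to 8.837) and *VCAM1* (18.3, the others 0). It was far below it in *KLF6* (89.44 CPM, the others 125 to 138.3).

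Blood libraries stood apart in *RELB* (pig 5, 11.6 CPM, the others 8.673 to 9.484), *RBCK1* (pig 4, 66.49, the others 38.81 to 46.06), the summed receptors (pig 5, 402.9 CPM, the others 343.2 to 356.6) and the summed adaptors (pig 3, 1151 CPM, the others 1180 to 1191). Among lrNK libraries it was *IKBKG* (pig 1, 62.3 CPM, the others 28.93 to 37.92), *TLR1* (pig 2, 55.68, the others 14.95 to 25.84), *PLEKHF1* (pig 2, 48 CPM, the others 73.3 to 80.86) and *SATB1* (pig 4, 365.4, the others 571.9 to 649). Among liver CD8α high libraries the summed kinases were highest in that of pig 2 (671.1 CPM, the others 561.3 to 591.2).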

How the results depend on the processing

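The 8 tested genes gave 24 log2 fold changes under 360 alternatives, of which 339 kept their direction and side of the threshold, 15 lost the call and 6 turned direction. The other named genes gave 69 under 1031, of which 953 were kept, 73 lost and 2 gained the call and 3 turned. Other scalings moved the median of all genes by at most 0.014 (log2). The causes of the changes below were not tested.

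With each pig left out in turn, called members ran from 2 to 4 between lrNK cells and blood and from 1 to 3 between the liver populations, where 1 was called without the liver CD8α high library of pig 1 and 1 at an adjusted p under 0.01. All genes called between the liver populations ran from 1051 to 1453, and were 1764 without the lrNK library of pig 3. Between liver CD8α high cells and blood, 7 genes were called, 25 by DESeq2, 18 with no filter, 4 with robust dispersion, 16 with these 2 populations alone, 12 without the lrNK library of pig 3 and 0 to 8 with each pig left out.

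With pig pairing as a block, 4, 0 and 3 members were called, the same counts as without it, and the log2 fold change of *NFKBIZ* between lrNK cells and blood was 2.62. With the block *IKBKG* had an adjusted p of 0.0365. Between lrNK cells and blood, the block changed called kinases from 2 to 4, adaptors from 3 to 5, other inhibitors from 4 to 5, receptors from 4 to 5, targets from 6 to 7 and handling-sensitive genes from 4 to 5. Between the liver populations it changed adaptors from 3 to 4, receptors from 5 to 6, targets from 2 to 5 and macrophage markers from 1 to 0.

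Directions turned for values that were never called. With pigs left out, *CHUK* between lrNK cells and blood ran from -0.0048 (without pig 5) to 0.49, and *TRAF3* from -0.22 to 0.075 (without pig 3), with 0.11 without the lrNK library of pig 3. Between liver CD8α high cells and blood, *NFKB1* ran from -0.12 to 0.0086 (without pig 5), *TNFAIP3* from -0.38 to 0.045 (without pig 2; 0.033 without pig 4) and *NFKBIE* from -0.23 (without pig 2; -0.010 without pig 5) to 0.19, with -0.014 without the liver CD8α high library of pig 1.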
